A study of Mus musculus with 36 samples.

Results

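The regions described here were called as Nanog peaks in mouse embryonic stem cells that lack DNA methyltransferases and are in none of the Nanog lists from the KH2 line. The members were chosen by the authors' peak calls. Peaks of all 6 Nanog lists that shared 1 bp or more were joined into regions, and the members are those with a peak from the knockout list alone. Of 57370 merged Nanog regions on chromosomes 1 to 5, 7 and 9 to 19, 31094 held a knockout peak and 11121 were members. The members made up 35.8% of the knockout regions and 19.4% of all merged regions, and each consisted of 1 knockout peak.

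The knockout sample, called TKO below, came from cells that the labels describe as a DNMT triple knockout, grown for 24 h in 2i with LIF and precipitated with antibody lot 2. The 5 KH2 lists, from cells with no knockout named in the labels, were serum and LIF (lot 1), serum cells labelled GFP-high (lot 2), 24 h of 2i (lot 1 and, apart from it, lot 2) and 3 passages of 2i (lot 1). The labels' protocol maintains all cells on irradiated embryonic fibroblasts and does not say whether these were kept in 2i, nor what the GFP reports. The labels hold 1 sample for TKO and for each lot 2 list and 2 samples for each lot 1 list. Neither the clone of the TKO cells nor their parent line is named, so cell line and loss of the enzymes cannot be told apart. The 8 lists of H3K4me3, Sox2 and Oct4 were all from KH2 cells, and what the members carry in TKO cells was not measured.

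Nanog is a homeodomain transcription factor that sustains self-renewal of embryonic stem cells and shares many enhancers with Oct4 and Sox2, which bind DNA side by side at composite sites. DNA methyltransferases place and maintain methyl groups on cytosines in CpG pairs, and cells without them lose most of this methylation while remaining viable as stem cells. 2i medium blocks the MEK and GSK3 kinases and holds the cells in a naive state in which methylation also declines with time. H3K4me3 is a histone mark of active and CpG-rich promoters.

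A call says only that a peak is in a list. The lists are selections from longer sets of calls, and the lowest −log10 q on the chromosomes used was 27.6 for TKO against 12.8 to 23.2 for the KH2 Nanog lists. Peak numbers ran to 569421 for TKO, of which 6.77% are in the list, and the corresponding shares for the KH2 Nanog lists were 10.1% to 38.9%. No condition has replicate lists with 1 antibody lot (KH2 at 24 h has 1 list for each lot), so there is no replicate error, and no test between conditions was made. Intervals below are exact binomial 95% intervals (Clopper-Pearson) and cover counting error only.

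The members were mostly weak sites of the TKO list. Their fold enrichment, the authors' ratio of signal over control at the peak, ran from 2.12 to 72.6 with a median of 9.06. The middle of the distribution was narrow, from 8.10 at the lower quartile to 10.9 at the upper. TKO regions that a KH2 list also called had a median of 13.0, and those called in all 5 KH2 lists had a median of 19.1. In a bulk sample a low fold from few bound cells and one from weak binding in every cell cannot be told apart. These values come from the list that chose the members and are given as a description.

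By rank, the strongest regions of the TKO list were almost all known from KH2 cells. Of the 1000 TKO regions with the highest fold 3 were members, of the top 5000 151, and of the top 10000 961. With the TKO regions divided by fold into 10 groups of like size, the share rose from 1.48% in group 1 (folds from 29.3 up) to 64.9% in group 8 (8.18 to 8.79), and was 44.6% in group 10. The weakest regions of the list were less often members than those just above them. The median member stood at rank 20749 of 31094.

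**Figure D1:**
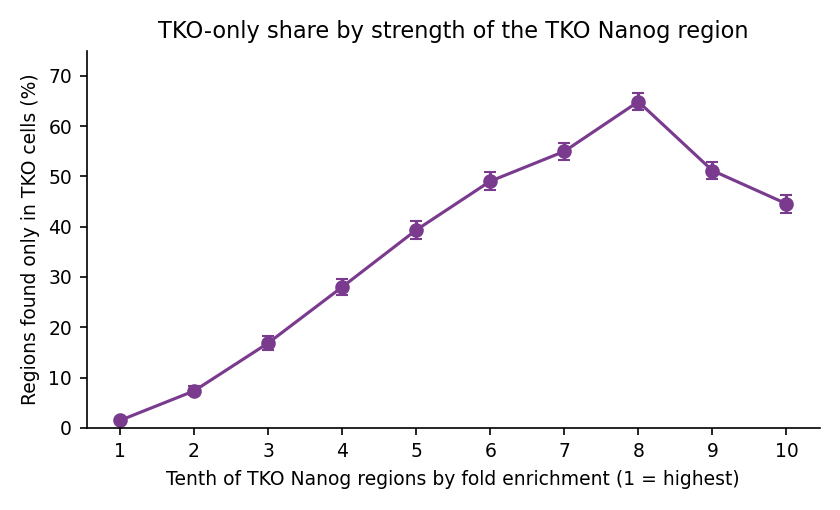
Share of TKO Nanog regions found in no KH2 Nanog list (y axis, percent) in 10 groups of like size, ordered by TKO fold enrichment (x axis, 1 is the highest fold). Points are shares and bars are exact binomial 95% intervals; the share is 1.48% in group 1, peaks at 64.9% in group 8 and is 44.6% in group 10.

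The significance of the peaks was likewise near the end of the list. The median −log10 q of members was 36.0, against 81.9 for TKO regions shared with KH2 cells. Of the members, 18.9% lay under 30, close to the list's lowest value, 76.2% lay under 50 and 95.7% under 100. Only 244 members, or 2.19%, reached a fold of 20, and 42 reached 30. The members held 1237 different pairs of fold and −log10 q, and 95.6% shared their pair with another member. The most frequent pair, a fold of 8.50 with a −log10 q of 29.2, occurred 460 times, so differences in rank among the weak members are coarse.

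The few strong members lay at varied distances from KH2 Nanog peaks. The leading one, chr4:143992560-143994190, had a fold of 72.6, rank 486 in the TKO list and a width of 1631 bp. It overlapped an H3K4me3 peak of 3 passages and no other list, and the nearest KH2 Nanog peak lay 35780 bp away. Next was chr16:90856901-90857757 with a fold of 59.6, 2648 bp from a KH2 Nanog peak of 3 passages. The region chr17:68114394-68114980 had a fold of 58.3 and lay 17591 bp from the nearest KH2 Nanog peak. At chr1:75325262-75325983 the fold was 51.4 and the distance 22200 bp, and another, weaker member lay within 1000 bp of it.

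From the fifth place on the folds were closer together. The regions chr5:67920458-67921409 and chr11:114164970-114165650 had folds of 38.9 and 38.7. Then came chr4:142867971-142868547 with 37.4, chr2:135495067-135495611 with 36.4, chr4:132839889-132840537 with 36.3 and chr11:104079094-104079770 with 36.0. Apart from the first, none of these 10 regions overlapped a peak of any H3K4me3, Sox2 or Oct4 list. Their distances to a KH2 Nanog peak ranged from 1778 bp to 65048 bp.

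Members were narrow. Their median width was 492 bp, with quartiles of 409 and 629 bp, against 685 bp for TKO peaks at regions shared with KH2 cells and 799 bp for those at regions in all 5 KH2 lists. The widest, chr13:23503135-23505052, spanned 1918 bp with a fold of 4.51 and overlapped H3K4me3 in all 3 conditions. The second, chr15:51769910-51771769, spanned 1860 bp with a fold of 17.0 and overlapped no other mark or factor. The third, chr11:3092392-3094241, combined a fold of only 3.41 with a −log10 q of 139.4. It was the only member with a fold under 5 and a −log10 q over 100, and it overlapped Sox2 in serum and H3K4me3 in serum and at 3 passages. In all 32 members had a fold under 5.

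The 5 KH2 lists differed in how many TKO regions they accounted for. The list closest in design, KH2 at 24 h with lot 2, held 40.6% of the TKO regions and left 18474. Adding GFP-high serum cells left 16256, and adding the lot 1 list of 24 h left 11842. The lists of 3 passages and of serum with lot 1 removed another 614 and 107. What a list removed depends on this order. Taken alone, the list of 3 passages held 53.2% of the TKO regions, GFP-high serum cells 38.0% and serum with lot 1 36.0%. The lot 1 list of 24 h, the longest of the KH2 lists with 35834 peaks, held 57.5% of the TKO regions and was the only KH2 list to hold 1718 of them. The number of members depends on the lists: with all 6 at the length of the shortest, 18800 peaks, it was 5039.

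The 1 bp rule decided few cases. The members nearest to a KH2 Nanog peak were chr15:65091070-65091525, 4 bp from a peak of GFP-high cells, chr7:103209488-103210170, 7 bp from a peak of serum cells, and chr13:64667691-64668148, 10 bp from a peak of GFP-high cells. Just outside the rule, the TKO peak at chr13:34177181-34177719 shared 1 bp with a peak of the lot 2 list of 24 h. The TKO peaks at chr5:53984272-53984707 and chr2:60035990-60036671 shared at most 2 and 3 bp with a KH2 peak, in regions that all 5 KH2 lists called. Their folds of 8.25, 7.50 and 9.10 were like the 9.93, 11.2 and 7.62 of the 3 members just inside. In all, 83 members lay within 100 bp of a KH2 Nanog peak, and 52 shared TKO peaks overlapped one by at most 100 bp.

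Few members overlapped a listed Sox2 or Oct4 peak. The Oct4 lists are strict, with 1.77% (serum) and 1.45% (24 h) of the numbered calls and lowest −log10 q of 86.4 and 85.9. The Sox2 lists hold 13.2% to 26.3% of theirs, with lowest values of 3.69 to 17.3. Absence from these lists is not absence of the factor. In KH2 cells at 24 h of 2i, a Sox2 peak overlapped 66 members, or 0.593% (0.459 to 0.754), and an Oct4 peak overlapped 48, or 0.432% (0.318 to 0.572). Over all merged Nanog regions these shares were 19.8% and 10.8%. The other conditions gave the same picture. Sox2 of serum overlapped 0.647% of members against 17.7% of all regions, and Sox2 of 3 passages overlapped 0.270% against 12.4%. Oct4 of serum overlapped 0.369% of members against 6.95% of all regions. Both factors at 24 h were found at 14 members, all 3 Sox2 lists at 11, and 179 members (1.61%) held a peak of any Sox2 or Oct4 list. With the Nanog lists at equal length the 24 h shares were 1.27% for Sox2 and 0.873% for Oct4, against 48.8% and 30.6% of shared TKO regions. Against the KH2 24 h list of lot 2 alone they were 5.11% and 2.75%.

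The shares of both factors rose step by step with the number of KH2 lists that shared a TKO region. Sox2 at 24 h overlapped 2.44% of TKO regions shared with 1 KH2 list, 13.1% of those shared with 3 and 75.7% (74.8 to 76.7) of those shared with all 5. For Oct4 at 24 h the shares were 2.17%, 6.14% and 48.7% (47.6 to 49.8). The KH2 regions of all 5 lists that TKO cells lacked also held the factors often, Sox2 in 57.3% and Oct4 in 24.4% of 2141 regions. The interval of the members overlaps none of these, but the groups were set by the same KH2 Nanog lists that chose the members. Median fold and width of TKO regions also rose with the number of lists, from 9.06 to 19.1 and from 492 to 799 bp. The intervals are therefore no test between groups.

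**Figure D2:**
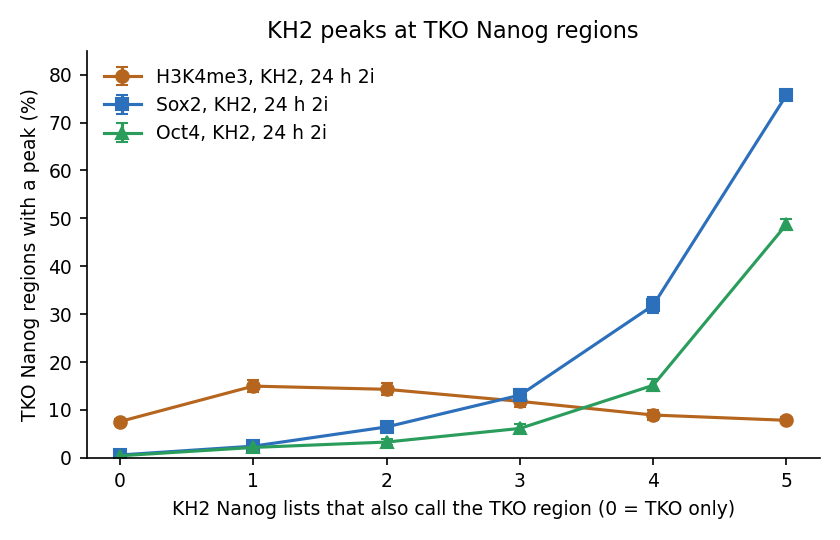
Share of TKO Nanog regions overlapped by a KH2 peak of H3K4me3 (circles), Sox2 (squares) or Oct4 (triangles) at 24 h of 2i (y axis, percent) against the number of KH2 Nanog lists that also called the region (x axis, 0 for the members). Bars are exact binomial 95% intervals; Sox2 goes from 0.593% to 75.7% and Oct4 from 0.432% to 48.7%, while H3K4me3 goes from 7.58% to 15.0% at 1 list and back to 7.84% at 5.

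The gap in Sox2 and Oct4 was also present within 4 broad groups by fold. TKO regions were divided by fold into 4 groups of like size, and members were set beside shared regions of the same group. In group 1 (folds from 16.7 up) Sox2 at 24 h overlapped 1 of 475 members (0.211%, 0.00533 to 1.17) and 57.3% of 7299 shared regions. In group 4 (folds up to 8.50) it overlapped 0.829% of 3983 members (0.571 to 1.16) and 22.5% of 3791 shared regions. For Oct4 the values were 0.211% and 38.4% in group 1, and 0.854% and 12.98% in group 4. Folds were not matched within a group: in group 1 they ran up to 282, and those of members only to 72.6. Shared regions were set by the KH2 Nanog lists, so these intervals are no test between members and shared regions.

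The members with Sox2 or Oct4 at 24 h, 100 in number, had a median fold of 8.28. The strongest was chr16:3116535-3117277, with a fold of 22.3 and Sox2 at 24 h. It was followed by chr12:56585016-56586093 with a fold of 17.8 and Oct4 at 24 h, and by chr5:54394874-54395454 with a fold of 16.3, which held Oct4 at 24 h and Sox2 in serum. The regions chr15:31485016-31485661 and chr16:90658388-90658765 held Sox2 at 24 h, with folds of 15.6 and 15.2. None of these 5 was called for the same factor in another condition.

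H3K4me3 overlapped a share of the members near that of Nanog regions in general. The 24 h list overlapped 843 members, or 7.58% (7.09 to 8.09), against 8.61% of all merged Nanog regions. The serum list overlapped 9.11% of members against 10.1%, and the list of 3 passages 8.78% against 10.4%. All 3 lists overlapped 792 members, so most H3K4me3 found at members was present in every condition. Among TKO regions shared with KH2 cells the 24 h share was 10.6% (10.2 to 11.04). Shared regions are wider, and when the TKO summit had to lie inside the mark the shares were 6.32% (5.88 to 6.79) for members and 6.67% (6.33 to 7.03) for shared regions, a difference within the counting error. With all Nanog lists at equal length the order turned, at 9.23% of members (8.44 to 10.1) and 8.85% of shared regions, again within the counting error. It also turned against the KH2 24 h list of lot 2 alone, at 11.4% and 6.09%. With the lowest −log10 q of the TKO list as minimum for all Nanog lists it did not turn, at 9.20% and 9.71%.

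Within the members, H3K4me3 went with a low fold. The 843 members with the mark at 24 h had a median fold of 7.10 and a median width of 540 bp, against 9.15 and 490 bp for the other 10278. Their median −log10 q was 36.2, against 36.0. In the 4 groups by fold, the mark was found at 0.842% of members in group 1 (0.230 to 2.14), at 1.90% and 3.30% in the next 2, and at 16.4% (15.3 to 17.6) in group 4. Shared TKO regions of the same groups had 6.55%, 7.21%, 9.53% and 24.2%. Members held the mark less often than shared regions in each of the 4 groups, and here too the intervals are no test. The same order was seen with the summit measure, at 0.421% and 2.90% in group 1 and 13.7% and 17.2% in group 4.

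**Figure D3:**
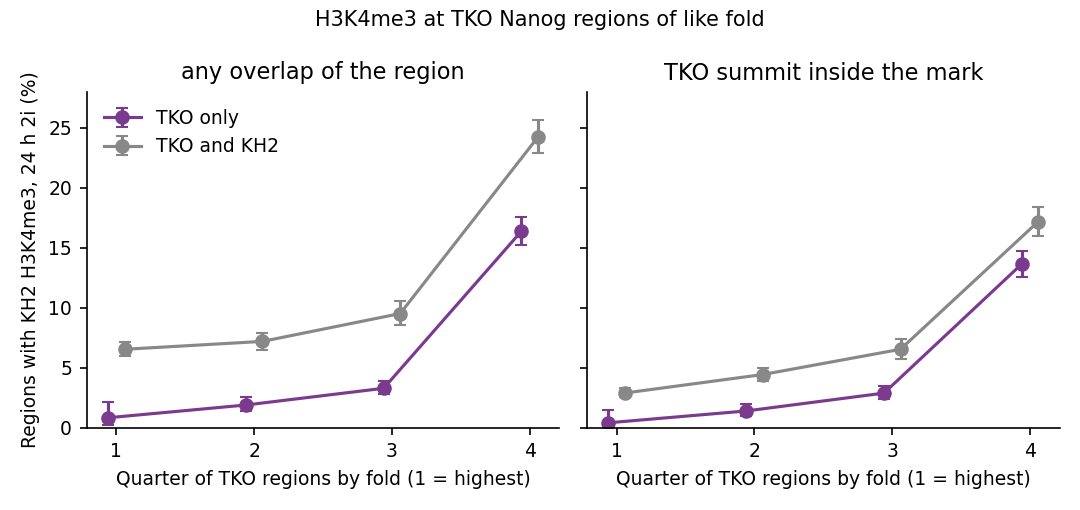
Share of TKO Nanog regions with a KH2 H3K4me3 peak at 24 h of 2i (y axis, percent) in 4 groups of like size by TKO fold enrichment (x axis, 1 is the highest), for members (purple) and for regions shared with a KH2 list (grey). The left panel counts any overlap and the right panel only TKO summits inside the mark; bars are exact binomial 95% intervals, and members go from 0.842% to 16.4% on the left and from 0.421% to 13.7% on the right, below shared regions in all 4 groups.

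The strongest members with H3K4me3 at 24 h were of moderate fold. The first, chr19:38469712-38470435, had a fold of 21.5, followed by chr2:26236001-26236453 with 18.1 and chr10:61949194-61949730 with 18.1. All 3 carried the mark in serum, at 24 h and at 3 passages, as did chr4:132064040-132064941 with a fold of 16.5. At chr16:38092405-38093541, with a fold of 16.8, the mark was called at 24 h only. None of the 5 held Sox2 or Oct4. Of the 843 members, 447 lay wholly inside 1 peak of the mark, and in 703 the TKO summit did. Sox2 at 24 h was found at 4 of the 843 (0.474%) and at 62 of the members without the mark (0.603%), and the intervals overlap.

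Regions found in only 1 list exist for each Nanog sample, and they place the TKO-only regions among their like. The KH2 lists had 746 (24 h, lot 2) to 5818 (24 h, lot 1) regions of their own, or 4.02% to 16.4% of their regions, against 35.8% for TKO. Cell line, antibody lot and length of list vary together among these lists. Such regions were weak in every list, with median folds of 6.22 to 9.003 in the KH2 lists. In rank the TKO-only regions were less extreme, with a median at the 33.3 percentile of fold in their own list, against 21.6 to 29.2 for the regions of 1 KH2 list. Median widths were alike, 491 to 516 bp in KH2 and 492 bp in TKO.

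The partner factors of the 24 h lists were less frequent at TKO-only regions than at those of 1 KH2 list. Sox2 at 24 h overlapped 2.31% to 4.54% of the latter, and Oct4 1.06% to 2.55%, against 0.593% and 0.432% of the members. The interval of the members for Sox2 lay below those of all 5 KH2 lists. For Oct4 it lay below those of 4, and its upper end of 0.572% was above the lower end of 0.565% for the list of 3 passages. In the other conditions the share of members was also lower, with 1 exception. Sox2 of serum overlapped 0.647% of members and 0.536% (0.146 to 1.37) of the regions found only at 24 h with lot 2. For Sox2 of 3 passages the intervals of members and of these regions overlapped. For Oct4 of serum the interval of members overlapped that of the regions found only at 3 passages. H3K4me3 at 24 h did not divide the groups as Sox2 and Oct4 at 24 h did. It overlapped 15.1% (14.2 to 16.1) of the regions found only at 24 h with lot 1 and 7.62% of those found only in serum with lot 1, and 2.70% to 3.75% of those of the 3 other lists. The members, at 7.58%, stood level with serum. The KH2 regions share their cell line with the Sox2 and Oct4 lists and the TKO regions do not, and the part of this in the result cannot be told apart from the rest.

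**Figure D4:**
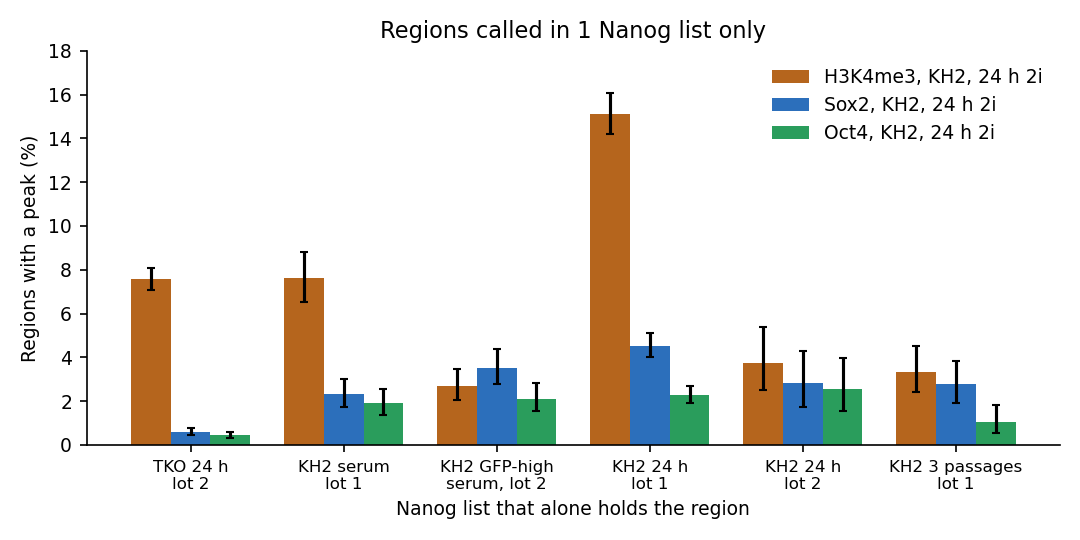
Share of the regions found in only 1 Nanog list (x axis, the list) that overlapped a KH2 peak of H3K4me3, Sox2 or Oct4 at 24 h of 2i (y axis, percent; bars from 0, with exact binomial 95% intervals). The TKO regions have 7.58% with H3K4me3, 0.593% with Sox2 and 0.432% with Oct4, and the Sox2 share is lower than in each KH2 list.

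By the rule that chose them, members share no base with a KH2 Nanog peak. Their distances to one are given without a background of random positions. The median distance to the nearest KH2 Nanog peak, edge to edge, was 9374 bp, with quartiles of 3288 and 22637 bp. Within 1 kb of such a peak lay 9.87% of the members, within 10 kb 51.8% and within 50 kb 91.7%. Regions found in only 1 KH2 list had median distances of 7247 to 12847.5 bp to the other 5 Nanog lists, and 44.2% to 58.8% lay within 10 kb. The nearest KH2 peak was in the lot 1 list of 24 h for 38.4% of the members and in that of 3 passages for 22.1%, the 2 longest KH2 lists.

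A few members were remote. The farthest, chr7:66536914-66537592, was 423991 bp from any KH2 Nanog peak and had a fold of 8.995. It was followed by chr2:41915490-41916129 at 372039 bp, with a fold of 10.97, and by chr17:23328938-23329361 at 350884 bp, with a fold of 13.9 and H3K4me3 in serum and at 3 passages. The other 2 held no mark or factor. Fold hardly varied with distance, with medians of 8.71 for members up to 1000 bp away and 9.52 for the 924 members beyond 50 kb. H3K4me3 at 24 h was found at 11.5% (9.65 to 13.5) of the former and 5.95% (4.52 to 7.68) of the latter. For Oct4 at 24 h the shares were 1.37% (0.767 to 2.24) and 0.216% (0.0262 to 0.780), and the intervals just overlap. Sox2 at 24 h did not fall with distance, at 0.729% (0.315 to 1.43) and 0.974% (0.446 to 1.84).

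**Figure D5:**
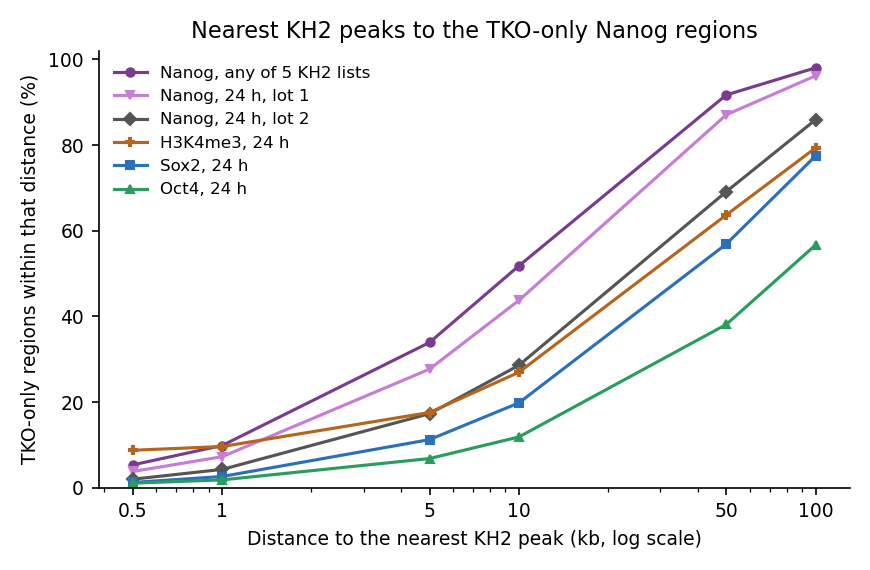
Cumulative share of the TKO-only Nanog regions (y axis, percent) that lie within a given distance (x axis, kb, log scale) of the nearest KH2 peak of Nanog, H3K4me3, Sox2 or Oct4. Nanog of any KH2 list is reached by 51.8% of the members within 10 kb, H3K4me3 at 24 h by 26.97%, Sox2 at 24 h by 19.8% and Oct4 at 24 h by 11.9%.

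Distances to Sox2 and Oct4 were longer for members than for shared TKO regions, with overlapping regions included. The median distance of a member to a Sox2 peak of 24 h was 39806 bp, and to an Oct4 peak 78897 bp. TKO regions shared with 1 to 4 KH2 lists were closer, at 25794 and 65405 bp. For H3K4me3 the medians were 29777 bp for members, 27277 bp for these shared regions and 40386.5 bp for the TKO regions shared with all 5 KH2 lists. Within 10 kb of a Sox2 peak lay 19.8% of members (19.1 to 20.6) and 33.2% of the shared regions (32.3 to 34.0). These shares include the 0.593% of members and 13.9% of shared regions that overlapped a Sox2 peak. In counts, 66 of the 2204 members and 1689 of the 4026 shared regions within 10 kb overlapped one. The 10 kb shares therefore largely restate the overlap. Regions without overlap were not compared apart.

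Most members had no other member within 10 kb. Another member lay within 10 kb of 23.7% of them (22.9 to 24.5), against 27.9% for the TKO regions shared with 1 to 4 KH2 lists and 18.98% for the regions shared with all 5. The share was 9.56% for the 5818 regions found only at 24 h with lot 1, and 5.00% for the 2141 regions of all 5 KH2 lists that TKO cells lacked. The groups differ in size, from 2141 to 12137 regions, and were not matched for it. The share of members was 15.7% with the Nanog lists at equal length and 36.1% against the KH2 24 h list of lot 2 alone, and the other groups were not recomputed in these settings. Joined at 10 kb, the members formed 8483 single regions, 953 pairs, 168 groups of 3, 36 of 4, 12 of 5 and 4 of 6. The 4 groups of 6 were chr1:154945641-154973262, with folds of 7.19 to 22.6, chr9:96388945-96407116, with 8.27 to 17.7, chr5:64843954-64878831, with 6.77 to 15.3, and chr1:77429817-77458038, with 7.08 to 14.8. The first 3 contained no other Nanog region, and the last contained 7 TKO regions shared with KH2 cells. None of the 24 members in these groups overlapped H3K4me3, Sox2 or Oct4 at 24 h.

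Most members had a Nanog region of KH2 cells as a neighbour on both sides. Going along the chromosomes, 58.8% of the members stood alone between other Nanog regions, and 15.3% fell in 497 runs of 3 or more members with no other Nanog region between them. Members were only 19.4% of all merged regions, so neighbours that are not members are common for any region. No background order was computed, and these shares are not read as a trait of the members. The longest runs, chosen after their values were seen, held 8 members. One, at chr4:127083593-127141941, spanned 58349 bp with a median fold of 13.4 and a highest fold of 32.5, and none of its members overlapped H3K4me3, Sox2 or Oct4 at 24 h. The other, at chr10:74582221-74674896, spanned 92676 bp with a median fold of 8.12, and 1 of its members overlapped H3K4me3. A run of 7 at chr9:114900928-114932885 spanned 31958 bp, with folds of 8.71 to 13.3.

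The share of members was similar on the chromosomes used. As a percent of the TKO regions it ranged from 33.0% (30.5 to 35.6) on chromosome 17 to 38.0% (36.0 to 39.99) on chromosome 5, around the 35.8% of all. These 2 are the extremes of 17 chromosomes, taken after their values were seen, so their intervals are no test of a difference. On the chromosomes left out by the rule (6, 8, X and Y) it was higher, at 46.1% of 6913 TKO regions. Chromosome 2, with 978 members, held 8.79% of them and 8.55% of the shared TKO regions. Taken over all other marks and factors, 9873 members, or 88.8% (88.2 to 89.4), overlapped no peak of any of the 8 H3K4me3, Sox2 and Oct4 lists, and 10.2% overlapped at least 1 of the H3K4me3 lists.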

How the data were processed

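The 14 peak lists that the authors deposited, in narrowPeak form, were used: 6 of Nanog, 3 of H3K4me3, 3 of Sox2 and 2 of Oct4. Sox2 samples are labelled as RNA but name an antibody and come with peak lists. They were read as ChIP-seq, and every Sox2 share rests on that reading. MACS2, BWA 0.5.7, Bowtie 0.12.7 and the build mm9 are named in the submitters' processing notes, without a role for each. The lists have no header line. By their layout and values, the deposited columns used are fold enrichment, which is a ratio over control, −log10 q and the summit offset, all as the authors made them. The peak names mention pooling and a control, but not the samples pooled. How the lists were selected from the calls is not stated, and read depth is unknown.

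Peaks were merged and compared with Python 3.11.15, pandas 2.3.3 and SciPy 1.17.1. The merging and distance code was tested on simulated data. Positions are mm9, counted from 1. Distances run from edge to edge, with touching regions at 1 bp. A region's fold is that of its strongest TKO peak, and its width that of its TKO peaks. The reference tables used here are of another build, so no gene was assigned and no sequence is shown. RNA, H3K27me3 and whole-cell extract samples were not analysed here. Alternatives were equal list lengths, a minimum −log10 q, another overlap, joining distance or set of chromosomes, the summit in place of the peak, and 1 KH2 list in place of 5.

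The members, classes and settings were chosen with earlier results of these data known. Regions named are the 10 members with the highest fold, the 5 with the highest fold among those with H3K4me3 and among those with Sox2 or Oct4 at 24 h, the 3 widest, the 3 farthest from KH2 Nanog, the largest groups at 10 kb (4 tied) and those at the edge of the 1 bp rule. Regions chosen after their values were seen are marked as such.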

Additional observations from a re-analysis of the deposited data

How the results depend on the processing

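No paired analysis was possible because the lists hold no value per replicate and no test was made, and for the same reason no replicate could be left out. A minimum −log10 q of 10 removed no Nanog peak, and an overlap of 50% of the shorter peak kept all 11121 members and gave 11250. The number of members stayed within 1.5 times with peaks joined up to 1000 bp apart (9778) and on chromosomes 1 to 19, X and Y (14310). It fell to 5039 with the Nanog lists at equal length, of which 3359 were members before, and rose to 18693 against the KH2 24 h list of the same lot only. Taking the lowest −log10 q of the TKO list as the minimum for all lists, an alternative chosen after seeing the data, gave 13912.

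In the order equal length, same lot only and common minimum, the share with H3K4me3 at 24 h was 9.23%, 11.4% and 9.20%, that with Sox2 1.27%, 5.11% and 1.11%, that with Oct4 0.873%, 2.75% and 0.791%, and that with another member within 10 kb 15.7%, 36.1% and 28.5%. With the TKO summit inside the peak, H3K4me3 came to 6.32% and Sox2 to 0.459%. Joining at 1000 bp gave 18.6% of members within 10 kb of another, all chromosomes gave 27.2%, and a distance of 50 kb gave 61.6%. Against shared TKO regions the order for Sox2 and Oct4 was the same in all of the settings in which it was computed, with 48.8% and 30.6% of shared regions at equal length. For H3K4me3 the order turned at equal length and against the same lot only, and in no other setting in which it was computed. At equal length shared regions had 8.85%, inside the interval of the members (8.44 to 10.1). Against the same lot only they had 6.09%. The cause was not tested. Members are weak and near the end of a list whose depth is unknown, so absence from a KH2 list is not absence of binding.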

Other observations

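Seen from the side of the histone mark, TKO-only Nanog regions reached a small part of the H3K4me3 peaks. Of the 15114 peaks of the 24 h list on the chromosomes used, 875, or 5.79% (5.42 to 6.17), held a member. Of these, 774 held no KH2 Nanog peak of any list, and 101 held one as well. A KH2 Nanog peak was found in 27.97% of all H3K4me3 peaks, and 66.6% held no Nanog peak of either cell line. The 774 peaks had a median width of 1415 bp and a median fold of 10.2, against 1123 bp and 8.17 for all H3K4me3 peaks. The 101 peaks with both were wider, with a median of 2328 bp.

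A member with a very low fold, chosen after its values were seen, was chr17:39983171-39983712. Its fold of 2.12 was the lowest of all members, while its −log10 q was 62.1. It lay 242 bp from a Nanog peak of GFP-high cells and overlapped Oct4 in serum and at 24 h. No peak was removed here for repeats or for high control signal, so this overlap may not be joint binding.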
